A study of Mus musculus with 4 samples.

Results

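Eukaryotic translation initiation factors are the proteins, written eIF, that bring a ribosome to the start codon of an mRNA. Their transcripts were followed here in mouse kidney cells after injection of FGF23, a bone-derived hormone that lowers blood phosphate and signals through Klotho-bound FGF receptors. Members were all genes of the deposited gene list whose symbol begins with Eif, other than the sex-linked pair Eif2s3x and Eif2s3y and names of pseudogenes, with at least 50 UMIs (unique molecular identifiers, which count captured RNA molecules) over all barcodes of the 4 libraries. Of 56 such symbols, 2 were the sex-linked pair and 2 (Eif2c5 and Eif4e1b) had 0 UMIs, which left 52 members among 31053 genes. All 52 were found by gene ID in GENCODE vM21 (mouse build GRCm38), on 18 chromosomes.

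Kidneys came from 10-week-old C57BL/6 mice, and each library combined cells of male and female animals. The 3 treated groups received a single intraperitoneal injection of 10 µg recombinant human FGF23 per mouse and were taken at 1, 4 or 12 h, and the baseline group was labelled 0 h with 0 µg. The deposited matrix of that baseline carries a name that describes saline at 1 h, so it is open whether those mice had a saline injection or none. Every group had 1 library, so there were no replicates and nothing was tested across samples. A change from FGF23 therefore cannot be told apart from any other difference between the libraries.

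In initiation, eIF2 carries the initiator tRNA to the small ribosomal subunit and eIF2B recharges eIF2 with GTP. The eIF4 factors bind the mRNA cap and unwind the leader, eIF1 and eIF1A police the choice of start codon, eIF3 is the scaffold on the small subunit, and eIF5, eIF5B and eIF6 govern subunit joining. Of the regulators, the eIF2 kinases slow initiation under stress and the 4E-binding proteins hold back the cap-binding factor eIF4E until mTORC1 phosphorylates them.

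The libraries held 12245 to 13813 barcodes and 139675666 to 158838728 UMIs, and 8561 to 10056 cells per library were kept. Cells were clustered without the members and classes were named from marker genes, with "-like" marking names rebuilt here. Proximal tubule (PT-like) cells numbered 6398, 6028, 7158 and 6045 in time order, and cells of the distal convoluted tubule and the connecting segment after it (DCT/CNT-like) numbered 499, 483, 656 and 602. Levels are CPM, the UMIs of a gene scaled to the same UMI total in every class and library. Series of 4 values run in the order 0, 1, 4 and 12 h. In PT-like cells the libraries differed in composition. The mitochondrial share of UMIs was 23.8% at 0 h and 18.9% at 4 h. PT-S3-like cells were 33.0% of PT-like cells at 0 h and 18.9% at 12 h. That name, for the straight segment, needed 3 of its markers on in a cluster. PT-S3-like clusters with 1290 and 507 cells at 0 h had just 3 on. The latter also had Slc22a6, a marker listed for PT-S1/S2-like cells, among its top 10 genes. The mitochondrial share in the distal class was 34.2% at baseline and 30.0% at 4 h. The cluster led by Slc12a3 made up 65.3% of DCT/CNT-like cells at 0 h and 44.2% at 12 h, and the female share of sex-called cells was 66.9% at 0 h and 48.0% at 12 h. Pairs of libraries shared 36 to 57 barcode sequences, and the part of these shifts in the results was not tested.

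The summed CPM of the family was highest at 4 h in both classes. Summed over the 52 members, the PT-like level was 5057, 5230, 5607 and 5266 CPM and the DCT/CNT-like level 4290, 4397, 4955 and 4725 CPM. The UMI totals behind CPM include mitochondrial UMIs, whose share was lowest at 4 h. It was 23.8%, 24.1%, 18.9% and 23.8% in PT-like cells and 34.2%, 34.4%, 30.0% and 33.2% in DCT/CNT-like cells. Its part in the order of these sums was not tested. A member is said below to have risen or fallen where its CPM differed from 0 h by a log2 ratio of at least 0.32 and the exact 95% interval left out 0; these intervals cover counting error only. This rule was read for genes with at least 100 UMIs in the class over the 4 libraries, which 50 of 52 members reached in PT-like cells and 50 in DCT/CNT-like cells. In PT-like cells 2 members rose at 1 h, 15 at 4 h and 9 at 12 h, while 3.84%, 15.3% and 12.3% of all 12437 genes did. None fell at 1 h, 1 fell at 4 h and none at 12 h, while 5.61%, 12.2% and 10.5% of all genes did. Among DCT/CNT-like cells 4, 16 and 12 members rose, against 5.38%, 12.1% and 10.5% of 9471 genes, and 0, 2 and 2 fell, against 5.21%, 16.1% and 12.4%. The share of members that rose at 4 h was thus 30.0% in the first class and 32.0% in the second. The distal split of 16 higher and 2 lower at 4 h became 9 and 6 when levels were scaled to non-mitochondrial UMIs.

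The median log2 ratio to 0 h over the members in PT-like cells was 0.04, 0.21 and 0.15 at the 3 later times, beside 0.01, 0.04 and 0.02 over all genes. The DCT/CNT-like medians were 0.02, 0.23 and 0.17, beside -0.02, -0.04 and -0.02. At 4 h, 39 of 50 members had a positive ratio in the proximal class and 40 of 50 in the distal class, whereas 55.5% and 45.5% of all genes had one. Both classes came from the same 4 libraries, so they do not replicate each other and their values are given side by side. No call was made in either class at any time for 21 members, among them 8 of the 14 eIF3 genes, and where they passed the minimum their log2 ratios ran from -0.27 to 0.32 in PT-like cells and from -0.46 to 0.43 in the other class.

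**Figure D1:**
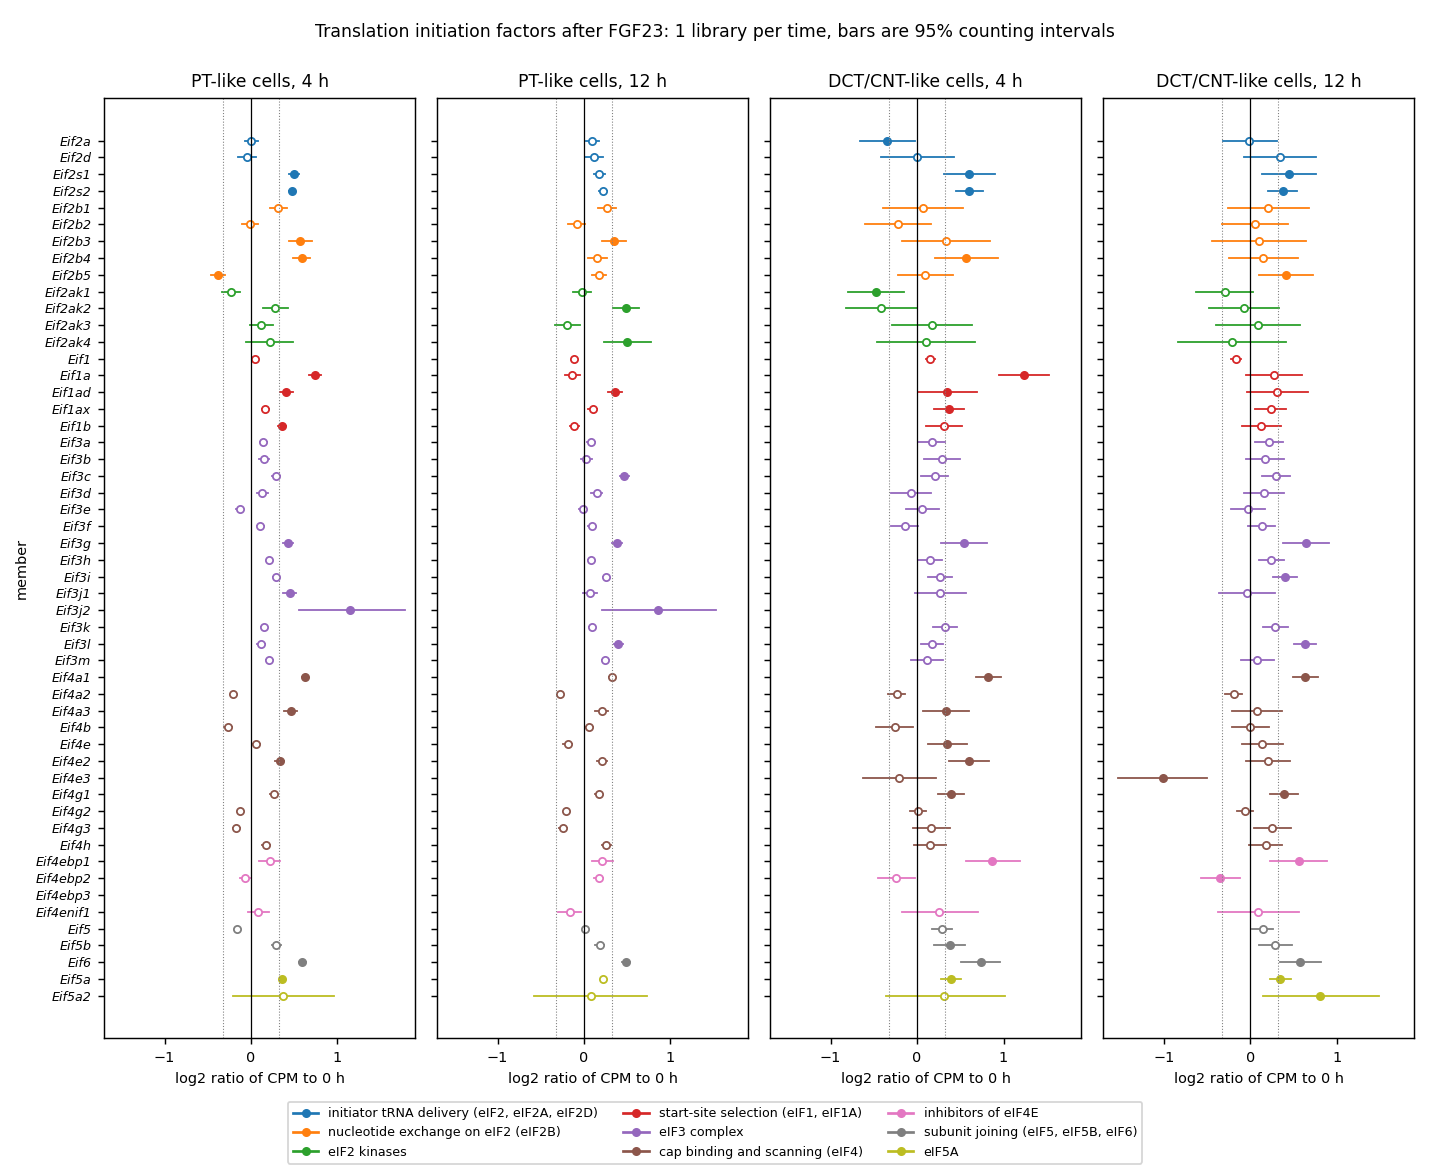
Log2 ratio of CPM to 0 h (x axis) for each member (y axis, coloured by role) in the proximal and the distal class at 4 and 12 h, with 95% counting intervals as bars, filled points for members called higher or lower and dotted lines at the fold limit (0.32 on the log2 scale). Most points lie right of 0 in all 4 panels, with Eif1a, Eif4a1 and Eif6 among the farthest right at 4 h and Eif4e3 at -1.01 in DCT/CNT-like cells at 12 h.

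**Figure D2:**
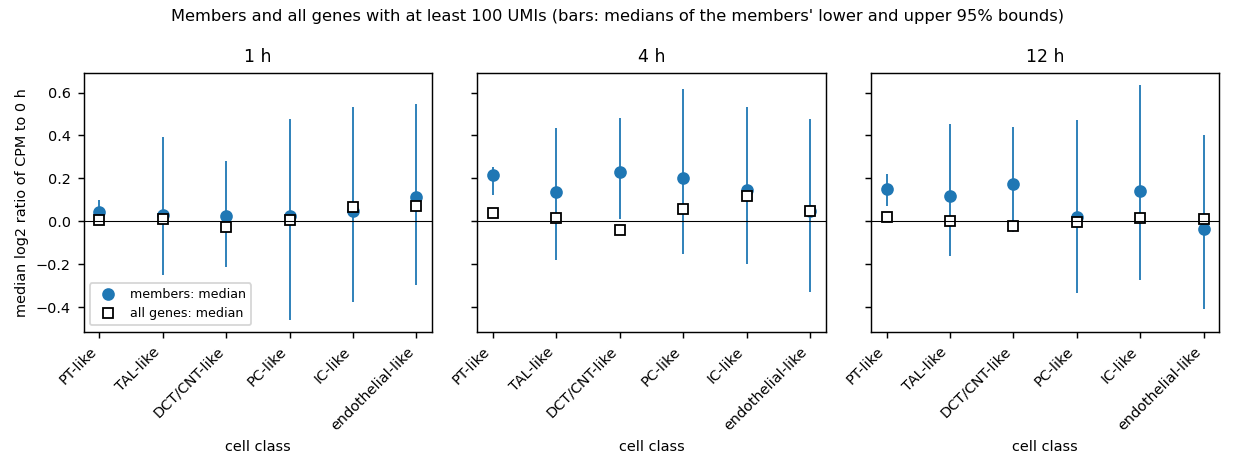
Median log2 ratio of CPM to 0 h (y axis) over the members (blue circles) and over all genes with at least 100 UMIs (open squares) in 6 cell classes (x axis) at 1, 4 and 12 h. Bars run from the median of the members' lower bounds to the median of their upper bounds, and the circles stand above the squares at 4 h in the PT-like class and the DCT/CNT-like class.

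Of the factors that deliver the initiator tRNA, the eIF2 alpha and beta subunits rose and the alternative factors Eif2a and Eif2d did not. Eif2s1 (ENSMUSG00000021116, chromosome 12, 78861819 to 78887010), which encodes the alpha subunit phosphorylated by the eIF2 kinases, measured 44.6, 45.8, 62.9 and 50.4 CPM in PT-like cells. Its log2 ratio at 4 h was 0.50 (95% interval 0.44 to 0.56). Eif2s2 (ENSMUSG00000074656, chromosome 2, 154871410 to 154892935), which encodes the beta subunit, measured 106, 109, 148 and 124 CPM, a log2 ratio of 0.47 at 4 h (0.44 to 0.51). Both stood highest at 4 h, with a positive ratio under every alternative, and lay between the baseline and the peak at 12 h. The DCT/CNT-like cells showed the same order, with Eif2s1 at 27.5, 28.2, 41.7 and 37.5 CPM (0.60 at 4 h, 0.31 to 0.90) and Eif2s2 at 93.3, 109, 142 and 121 CPM (0.60, 0.44 to 0.76). Eif2a, which can bring the initiator tRNA without eIF2, was level in PT-like cells at 32.2, 32.3, 32.3 and 34.5 CPM. It fell in DCT/CNT-like cells at 4 h, from 30.6 to 24.2 CPM (-0.34, -0.66 to -0.03), and stood at 30.5 CPM at 12 h. Eif2d, which acts on some leaders in place of eIF2, had no call in either class. In PC-like cells (principal cells of the collecting duct) it was at 10.9, 29.2, 24.4 and 24.2 CPM and was called higher at all 3 times, with 10 UMIs at baseline.

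The promoters of Eif2s1 and Eif2s2 are shown because these subunits rose together in both classes. Each is the 250 bases before the RefSeq start (GRCm38.p6), on the gene's strand, with matches to the motifs named further below in capitals. The Eif2s1 window is chr12:78861822-78862071 on the plus strand and the Eif2s2 window chr2:154892907-154893156 on the minus strand. These RefSeq starts lie downstream of the GENCODE gene starts given above. The whole Eif2s1 window lies inside the GENCODE span of the gene, and the Eif2s2 window runs partly into its own.
Eif2s1: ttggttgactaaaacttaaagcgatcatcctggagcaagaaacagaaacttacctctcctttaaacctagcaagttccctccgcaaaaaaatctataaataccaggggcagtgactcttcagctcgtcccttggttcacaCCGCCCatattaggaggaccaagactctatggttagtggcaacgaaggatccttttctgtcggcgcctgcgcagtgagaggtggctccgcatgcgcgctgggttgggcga
Eif2s2: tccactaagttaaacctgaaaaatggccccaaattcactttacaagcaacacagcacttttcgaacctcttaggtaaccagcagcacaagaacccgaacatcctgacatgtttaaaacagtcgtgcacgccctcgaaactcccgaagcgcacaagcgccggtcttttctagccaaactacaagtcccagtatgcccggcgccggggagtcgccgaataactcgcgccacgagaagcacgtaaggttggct
The Eif2s1 window held 1 GC box and the Eif2s2 window none of the motifs.

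The 5 subunits of eIF2B, the exchange factor for eIF2, did not move together. In PT-like cells Eif2b4 (delta subunit) measured 16.1, 17.2, 24.2 and 17.9 CPM and Eif2b3 (gamma subunit) 9.27, 9.81, 13.8 and 11.8 CPM. Both rose at 4 h, by log2 ratios of 0.59 (0.49 to 0.69) and 0.57 (0.44 to 0.70), and Eif2b3 also at 12 h (0.34, 0.21 to 0.48). Eif2b5, the catalytic epsilon subunit, was the one member that fell in PT-like cells at 4 h. Its levels were 28.1, 27.3, 21.6 and 31.7 CPM, a log2 ratio of -0.38 (-0.47 to -0.30) at 4 h and 0.17 at 12 h. Among distal cells Eif2b4 rose at 4 h (18.6 to 27.5 CPM) and Eif2b5 rose at 12 h (26.7 to 35.5 CPM). The Eif2b5 ratio at 12 h was 0.41 (0.10 to 0.73), with 0.01 among male-called and 0.76 among female-called distal cells.

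The 4 eIF2 kinases are Eif2ak1 (HRI, sensing haem), Eif2ak2 (PKR, sensing double-stranded RNA), Eif2ak3 (PERK, sensing the endoplasmic reticulum) and Eif2ak4 (GCN2, sensing uncharged tRNA). In PT-like cells Eif2ak2 measured 7.69, 7.91, 9.36 and 10.8 CPM and rose at 12 h (0.48, 0.33 to 0.63). Eif2ak4 measured 2.43, 3.33, 2.82 and 3.43 CPM and rose both at 1 h (0.46, 0.19 to 0.72) and later at 12 h (0.50, 0.23 to 0.77). The 12 h value of Eif2ak4 was -0.01 in PT-S3-like cells alone. Eif2ak1 stood at 19.2, 18.7, 16.4 and 18.9 CPM and Eif2ak3 at 9.96, 9.23, 10.8 and 8.71 CPM, with no call. In PT-S3-like cells alone Eif2ak1 fell at 4 h (20.2 to 14.2 CPM, -0.51, -0.68 to -0.34), and in PT-S1/S2-like cells it was -0.09. Eif2ak1 fell in DCT/CNT-like cells at 4 h, from 30.2 to 21.7 CPM (-0.48, -0.80 to -0.15), but was 0.21 on the log2 scale with a mitochondrial limit of 25% per cell. The other 3 kinases had no call there: Eif2ak2 was at 18.6, 16.7, 14.0 and 17.7 CPM, Eif2ak3 at 12.7, 9.21, 14.2 and 13.4 CPM, and Eif2ak4 at 8.70, 10.8, 9.30 and 7.50 CPM.

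Of the start-site factors, Eif1a had the largest rise at 4 h in DCT/CNT-like cells, and in PT-like cells the largest after Eif3j2. Eif1a (ENSMUSG00000057561, chromosome 18, 46597701 to 46616456) encodes eIF1A, which holds the scanning ribosome open with eIF1. In PT-like cells it measured 29.6, 35.5, 49.6 and 27.0 CPM, a log2 ratio of 0.74 (0.67 to 0.81) at 4 h and -0.14 at 12 h. The distal levels were 25.7, 35.3, 60.3 and 31.1 CPM, with a log2 ratio at 1 h of 0.46 (0.13 to 0.79) that reached 1.23 (0.95 to 1.52) by 4 h. The 12 h level was thus at or near that of 0 h in both classes. Eif1ax, the X-linked gene for the same factor, had 89.0, 92.4, 99.9 and 95.3 CPM in PT-like cells and rose in DCT/CNT-like cells at 4 h (82.0 to 106 CPM). Eif1, which guards against wrong start codons, was level in PT-like cells, with 1087, 1153, 1121 and 1004 CPM and no call at any time. Eif1ad, a related gene whose product is not known as a core factor, rose in both classes at 4 h, by 0.41 and 0.35.

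Of the 14 eIF3 subunit genes, 3 rose in PT-like cells at 4 h and 4 at 12 h, and none fell, beside 15.3% and 12.3% of all genes that rose. At 12 h these were Eif3c (75.1, 78.0, 92.0 and 104 CPM over time), Eif3g (50.3, 51.8, 67.6 and 65.6), Eif3l (66.9, 68.2, 72.4 and 88.0) and Eif3j2. Eif3l (ENSMUSG00000033047, chromosome 15, 79075179 to 79094405), an outer subunit, had a log2 ratio of 0.12 at 4 h and 0.40 (0.35 to 0.45) at 12 h, so its call came later than those of Eif2s1 and Eif1a. The DCT/CNT-like levels of Eif3l were 146, 160, 164 and 226 CPM, with 0.17 at 4 h and 0.64 (0.51 to 0.77) at 12 h. In that class 1 of 13 subunit genes rose at 4 h, Eif3g, and 3 at 12 h, Eif3g, Eif3i and Eif3l, beside 12.1% and 10.5% of all genes. Eif3g, an RNA-binding subunit, stood at 34.2, 41.4, 49.6 and 53.4 CPM. Eif3h, the eIF3 gene with the most UMIs, stood at 183, 186, 212 and 193 CPM in PT-like cells, with no call. Eif3j2 had the largest ratio of all in PT-like cells, 1.15 (0.55 to 1.78) at 4 h. It rested on 226 UMIs, at 0.39, 0.65, 0.86 and 0.71 CPM, and is uncertain: the last 500 bases of its transcript match Eif3j1 at 99.8%, so reads of one could be counted for the other. Eif3j1 itself rose in PT-like cells at 4 h (30.3 to 41.3 CPM, 0.45) and in DCT/CNT-like cells at 1 h (29.3 to 40.2 CPM, 0.46). It was 1 of 4 members that rose at 1 h in the distal class, with Eif1a, Eif1ad and Eif4a1. The 8 stromal markers summed to 1.19, 223, 0.517 and 0.625 CPM there, with 3 of 8 at 0 in the 1 h library, and their part in the 1 h rises was not tested.

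Of the cap-binding and scanning factors, 3 of 10 rose at 4 h in PT-like cells and 5 of 11 in DCT/CNT-like cells, beside 15.3% and 12.1% of all genes. None fell, beside 12.2% and 16.1%. They held a contrast between the 2 paralogous RNA helicases of the cap-binding complex. Eif4a1 (ENSMUSG00000059796, chromosome 11, 69666936 to 69672423) measured 179, 193, 275 and 223 CPM in PT-like cells, a log2 ratio of 0.62 (0.59 to 0.65) at 4 h. Its DCT/CNT-like levels of 109, 145, 194 and 170 CPM were a rise at all 3 times, by 0.41 (0.25 to 0.56), 0.83 (0.68 to 0.97) and 0.64 (0.49 to 0.79). Eif4a2 (ENSMUSG00000022884, chromosome 16, 23107444 to 23114136) had ratios below 0 at every time in both classes, none past the fold limit. It was past that limit at 12 h in PT-S3-like cells alone (-0.46, -0.52 to -0.39) and in male-called PT-like cells (-0.32). With scaling to non-mitochondrial UMIs it was -0.33 in the distal class at 4 h, and in male-called distal cells, 1 h after injection, it was 0.05. It measured 191, 181, 166 and 158 CPM in PT-like cells, with -0.20 (-0.24 to -0.17) at 4 h and -0.27 at 12 h, and 287, 266, 244 and 251 CPM in DCT/CNT-like cells.

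The promoters of this pair are shown for that contrast. The windows are chr11:69672424-69672673 on the minus strand for Eif4a1 and chr16:23107218-23107467 on the plus strand for Eif4a2, from the same RefSeq table. The Eif4a2 window runs partly into the GENCODE span of its gene.
Eif4a1: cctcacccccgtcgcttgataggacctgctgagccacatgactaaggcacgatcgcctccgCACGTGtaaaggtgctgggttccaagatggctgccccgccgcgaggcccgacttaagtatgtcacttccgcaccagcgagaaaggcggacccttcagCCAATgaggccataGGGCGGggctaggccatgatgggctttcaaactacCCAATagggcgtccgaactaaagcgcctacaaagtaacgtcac
Eif4a2: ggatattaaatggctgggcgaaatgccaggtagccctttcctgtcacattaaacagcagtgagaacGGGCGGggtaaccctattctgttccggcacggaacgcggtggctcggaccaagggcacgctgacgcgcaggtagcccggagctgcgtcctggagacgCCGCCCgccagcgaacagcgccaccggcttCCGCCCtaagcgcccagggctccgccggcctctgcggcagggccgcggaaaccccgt
The Eif4a1 window held 1 E-box, 1 GC box and 2 CCAAT boxes, and the Eif4a2 window 3 GC boxes. The motifs searched, on both strands, were the E-box CACGTG, the ETS site CCGGAAG, the EGR site GCGTGGGCG, the CRE TGACGTCA, the amino acid response element TGATGNAA, the GC box GGGCGG (which can overlap an EGR site) and CCAAT. Promoters were found for 41 of 52 members, in 54 windows. Of these windows 20.4% held an E-box, 22.2% the ETS site, 66.7% a GC box and 25.9% CCAAT, beside 6.02%, 6.91%, 32.7% and 33.8% of all 32851 windows in the table. The EGR site, the CRE and the amino acid response element were in 0 of the 54 windows, beside 0.536%, 1.55% and 3.45% of all. A match describes letters only.

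Among the other factors of this group, Eif4a3, a helicase of the exon junction complex, rose in PT-like cells at 4 h (31.5, 32.2, 43.3 and 36.3 CPM over time, 0.46). It also rose at 4 h in DCT/CNT-like (0.33), TAL-like (0.74), IC-like (1.05) and endothelial-like (0.66) cells. The IC-like ratio was already 1.00 at 1 h and rested on 24 UMIs in 71 cells at baseline. Eif4e2, a cap-binding protein that does not join the active complex, rose at 4 h in both classes, from 62.1 to 78.1 CPM and from 44.3 to 67.1 CPM. Eif4e, which does, stood at 80.0, 79.9, 83.3 and 70.3 CPM in PT-like cells with no call and rose in DCT/CNT-like cells at 4 h (49.2 to 62.5 CPM). Eif4g2, which encodes a scaffold that cannot bind eIF4E, had no call, with 378, 379, 347 and 328 CPM in the proximal class and 316, 330, 317 and 303 CPM in the distal class. Eif4e3 fell in DCT/CNT-like cells at 12 h. Its levels were 17, 15.3, 14.7 and 8.43 CPM, a log2 ratio of -1.01 (-1.53 to -0.50), and -0.85 within the Slc12a3-led cluster alone. The 7 TAL-like (thick ascending limb) markers, none of them at 0, summed to 4000, 3565, 3493 and 2569 CPM in the class, and Eif4e3 was higher in TAL-like cells at baseline (23.6 CPM). Their part in the fall was not tested. Eif4e3 overlaps another gene on its strand, Gm20696, so its count is uncertain.

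Of the inhibitors of eIF4E, Eif4ebp1 rose in DCT/CNT-like cells. It measured 23.5, 24.2, 43.0 and 34.7 CPM, with log2 ratios at 4 and 12 h of 0.87 (0.56 to 1.19) and 0.56 (0.23 to 0.89). At 4 h the ratio was 0.49 among male-called and 1.02 among female-called cells, and at 12 h it was 0.06 and 0.89. The 7 markers of neutrophils, in which Eif4ebp1 is abundant, summed to 111, 7.30, 2.20 and 1.72 CPM in these cells, and their part in its ratios was not tested. None of the 7 was at 0 in the baseline library, and Csf3r, Cxcr2, Ly6g and Mmp8 were each at 0 in at least 1 later library. In PT-like cells Eif4ebp1 stood at 11.9, 11.2, 13.9 and 13.8 CPM with no call. Eif4ebp2 stood at 60.0, 68.1, 57.2 and 67.4 CPM in PT-like cells with no call, and fell in DCT/CNT-like cells at 12 h (64.2, 59.5, 54.4 and 50.6 CPM, -0.34, -0.57 to -0.12). Eif4ebp3 had 54 UMIs in PT-like cells and 3 in DCT/CNT-like cells, under the minimum.

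Among the joining factors, Eif6 rose at 4 and 12 h in both classes. Eif6 (ENSMUSG00000027613, chromosome 2, 155819832 to 155826925) encodes the protein that keeps free large subunits from joining. It measured 82.2, 87.5, 124 and 115 CPM in PT-like cells, with log2 ratios at 4 and 12 h of 0.59 (0.55 to 0.64) and 0.48 (0.44 to 0.53). In the distal class it measured 44.7, 43.5, 74.4 and 66.9 CPM, with 0.74 (0.51 to 0.96) and 0.58 (0.35 to 0.82). The 4 h and 12 h levels were thus above those of 0 and 1 h in both classes, without overlap of intervals. Eif5, which triggers GTP hydrolysis on eIF2, stood at 254, 263, 228 and 256 CPM in PT-like cells (-0.16 at 4 h, no call). Eif5b, the GTPase of subunit joining, rose in DCT/CNT-like cells at 4 h (73.3 to 95.1 CPM, 0.37). Eif5a, whose product carries the hypusine modification and acts mainly in elongation and termination, rose at 4 h in both classes, from 407 to 523 CPM (0.36) and from 180 to 237 CPM (0.40). Its paralogue Eif5a2 rose in DCT/CNT-like cells at 12 h from 5.73 to 10.0 CPM (0.80, 0.15 to 1.49), on 189 UMIs over the 4 libraries.

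**Figure D3:**
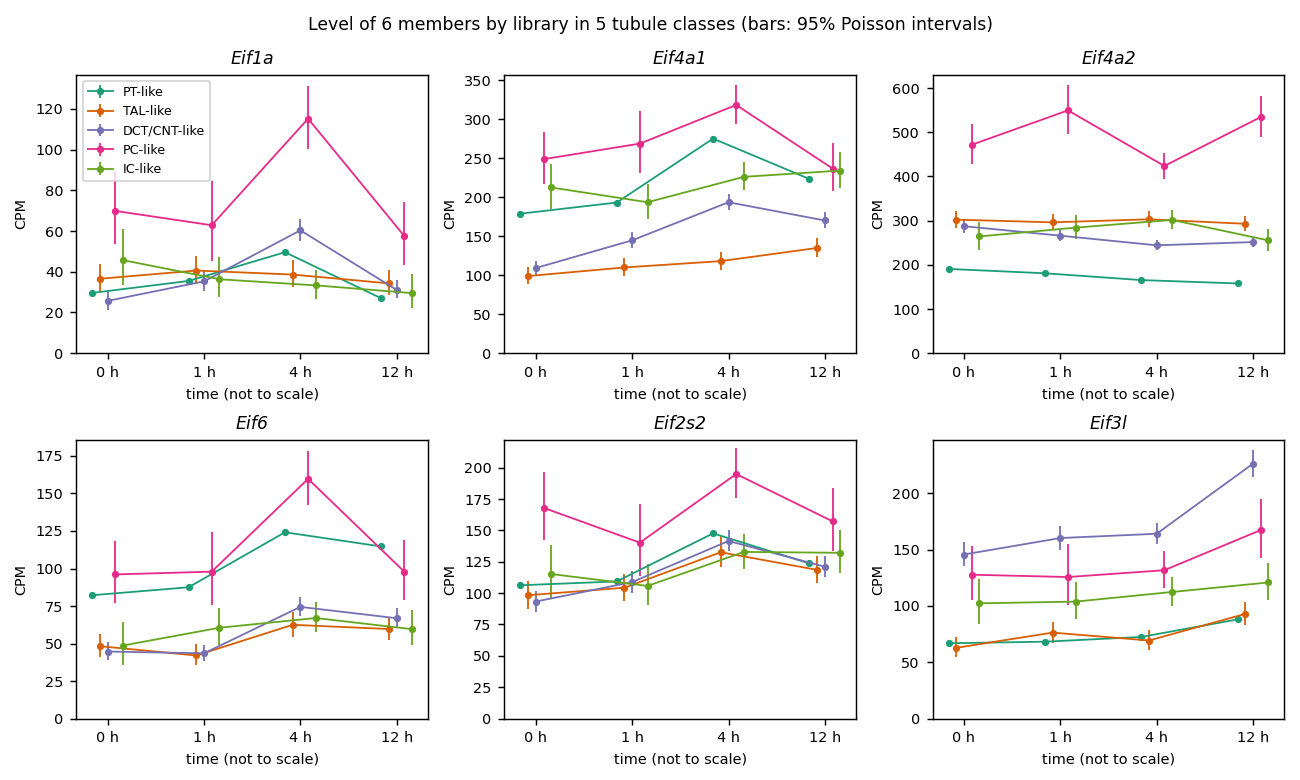
CPM (y axis, from 0) of 6 members in the 4 libraries (x axis, time not to scale) in 5 tubule classes (coloured lines), with exact 95% Poisson intervals as bars, 1 library per time. Eif1a, Eif4a1, Eif6 and Eif2s2 are highest at 4 h in the PT-like and the distal class, Eif3l is highest at 12 h in both, and Eif4a2 does not share the rise.

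The rise at 4 h was also read in the other tubule classes. Of the members past the minimum, 6 of 49 rose in TAL-like, 13 of 44 in PC-like and 5 of 45 in IC-like (intercalated) cells at 4 h, beside 5.81%, 10.9% and 9.18% of all genes. The IC-like share, 11.1%, was near that of all genes. At 12 h the counts were 6, 2 and 7, beside 4.45%, 5.52% and 5.26%. Members that fell numbered 0, 0 and 1 in these classes at 4 h and the same at 12 h. PC-like cells were few, 57 to 114 per library, and their rises at 4 h included Eif1a (69.9 to 115 CPM), Eif6 (96.1 to 160 CPM) and Eif4a1 (249 to 318 CPM). In endothelial-like cells 2 of 46 members rose at 4 h and 0 at 12 h, beside 7.43% and 4.51% of all genes. Members that fell there numbered 2 at 4 h and 0 at 12 h. Eif1a did not rise in TAL-like or IC-like cells, where its log2 ratios at 4 h were 0.08 (-0.29 to 0.45) and -0.46 (-0.98 to 0.09). Within PT-like cells, 17 of 50 members rose at 4 h in PT-S1/S2-like cells (the remaining PT-like clusters). In PT-S3-like cells 11 of 48 rose, and the shares of all genes were 14.9% and 12.7%.

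Levels were also compared between cell classes at baseline. In the 0 h library 4 of 48 members were at least 2-fold higher in TAL-like than in PT-like cells and 1 was at least 2-fold lower, beside 17.7% and 19.0% of all genes. For DCT/CNT-like cells these were 4 and 1 of 49 (17.3% and 19.5% of all genes), for PC-like cells 12 and 0 of 48 (31.4% and 13.1%) and for IC-like cells 3 and 1 of 48 (15.6% and 15.9%). In endothelial-like cells 10 of 48 members were at least 2-fold higher than in PT-like cells, in T/NK-like cells 14 and in B-like cells 11, beside 33.9%, 25% and 21.3% of all genes. In neutrophil-like cells 19 of 48 were at least 2-fold lower, beside 38.4%.

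Members with at least 100 UMIs over the 4 libraries in their highest tubule class were ordered by the ratio of highest to lowest class. Eif5a2, Eif2ak3, Eif2ak4, Eif3j2 and Eif4ebp3 had larger ratios than some of those named next but did not reach that number. The first in order was Eif4e3, which encodes one more cap-binding protein of the eIF4E family. It measured 0.29 CPM in PT-like cells (0.19 to 0.43, 25 UMIs) at 0 h, against 23.6 CPM in TAL-like (18.5 to 29.7), 21.8 in PC-like (13.3 to 33.7), 17 in DCT/CNT-like (13.6 to 21.0) and 9.93 in IC-like cells (4.76 to 18.3). The intervals of TAL-like, PC-like and DCT/CNT-like cells overlapped one another, and that of IC-like cells overlapped the latter pair. It reached 43.9 CPM in endothelial-like cells. The PT-like level was as low in the other libraries, at 0.21, 0.23 and 0.16 CPM, where expression and free RNA cannot be told apart. Eif2ak2 was 4.40-fold higher in PC-like than in PT-like cells (33.8 and 7.69 CPM) and reached 65.2 CPM in endothelial-like cells. Eif4ebp1 was 4.12-fold higher in PC-like (49.1 CPM) than in PT-like cells (11.9 CPM), with 47.2 in TAL-like, 38.7 in IC-like and 23.5 CPM in DCT/CNT-like cells, and stood at 218 CPM in neutrophil-like cells. Among members past the minimum, Eif1a, Eif4a3 and Eif4a1 came next, with PC-like cells highest in each and 2.72-, 2.70- and 2.51-fold between the highest and lowest tubule class. In T/NK-like and B-like cells several eIF3 subunits were high: Eif3e was at 452 and 346 CPM against 120 CPM in PT-like cells, Eif3f at 548 and 634 against 129, and Eif3h at 517 and 475 against 183.

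**Figure D4:**
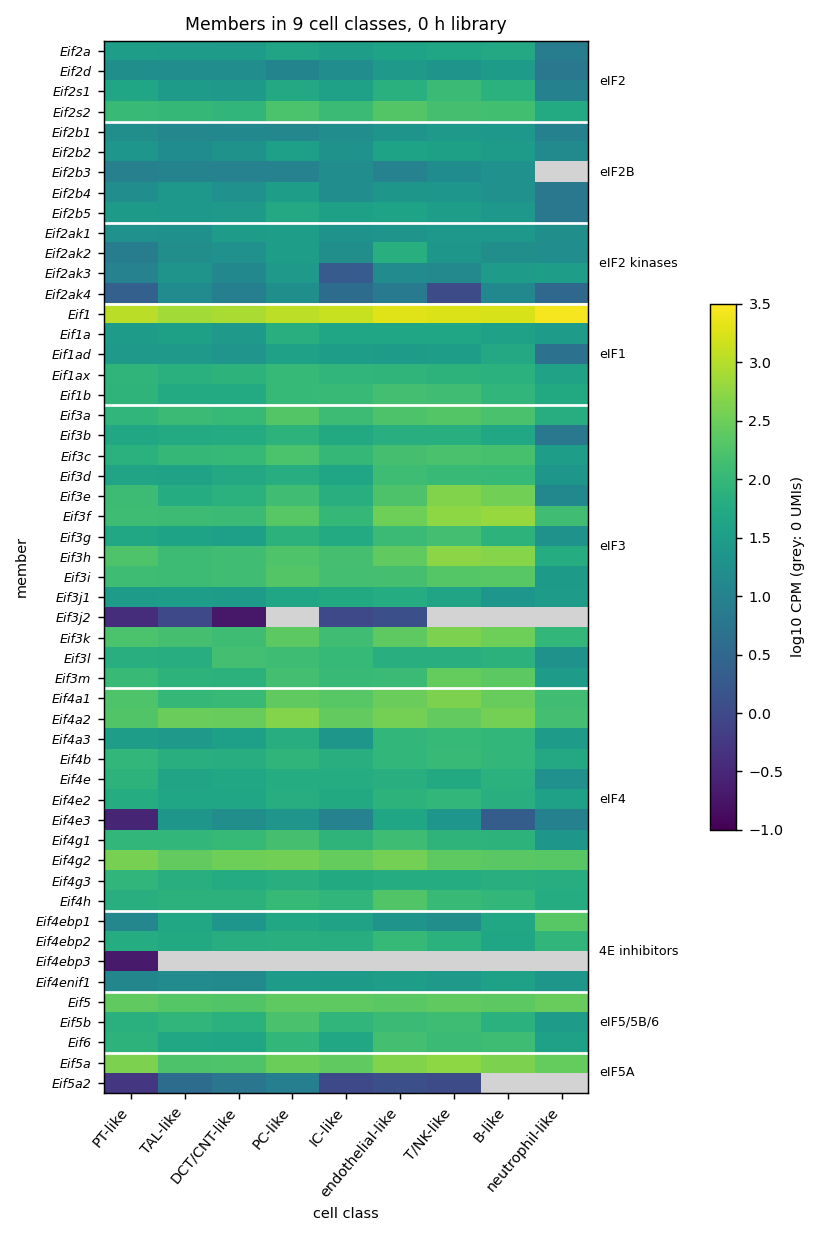
Level of each member (y axis, grouped by role) in 9 cell classes (x axis) of the 0 h library, as log10 CPM by colour, with grey where no UMI was counted. Rows are mostly of even colour, and Eif4e3 is dark (0.29 CPM) in PT-like cells alone among the tubule classes.

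Other genes of the initiation pathway were read as lists, naming at most 3 genes each by size of change. The elongation and termination list also held genes of ribosome assembly and hypusine synthesis. In PT-like cells 4 of its 13 genes past the minimum rose at 4 h and none fell, beside 15.3% and 12.2% of all genes. They included Tsr1, a ribosome assembly factor (6.00 to 10.1 CPM, 0.75), Dhps, an enzyme of hypusine synthesis on eIF5A (15.3 to 20.8 CPM, 0.44), and the release factor gene Etf1 (48.6 to 63.7 CPM, 0.39). The same list in DCT/CNT-like cells had 6 of 13 that rose and none that fell, beside 12.1% and 16.1%, including Etf1 (38.1 to 58.9 CPM, 0.63) and Dhps (17.2 to 23.9 CPM, 0.48). Of 17 partners in scanning and poly(A) binding, 2 rose and 1 fell at 4 h in PT-like cells, and 3 rose and 1 fell in DCT/CNT-like cells. All genes had 15.3% rises and 12.2% falls in the first and 12.1% and 16.1% in the second. The X-linked helicase gene Ddx3x fell in both, from 122 to 94.3 CPM and from 142 to 112 CPM, while Abcf1, an initiation cofactor, rose in both (0.36 and 0.51).

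The integrated stress response, the programme downstream of the eIF2 kinases, was split in direction. In PT-like cells 2 of 20 listed genes rose and 6 fell at 1 h, 7 rose and 3 fell at 4 h, and 5 rose and 6 fell at 12 h. The shares of all genes that rose and fell were 3.84% and 5.61%, 15.3% and 12.2%, and 12.3% and 10.5%. Ddit3, which encodes the stress factor CHOP, rose at 1 h from 11.4 to 24.1 CPM (1.08), and Sesn2, an inhibitor of mTORC1, rose at 4 h from 16.6 to 35.7 CPM (1.1). Among DCT/CNT-like cells 6 of 17 rose at 1 h and 1 fell, beside 5.38% and 5.21% of all genes, with Atf3 at 3.76 to 26.6 CPM (2.82) and Ddit3 at 15.4 to 36.0 CPM (1.22). In that class 6 rose and 3 fell at 4 h, beside 12.1% and 16.1% of all genes. At 12 h 3 rose and 4 fell, beside 10.5% and 12.4%. The genes named so far in this paragraph are rises. The mTORC1 and MNK list, which shares Sesn2 and others with it, had 2 rises and 8 falls among 22 genes in DCT/CNT-like cells at 4 h, among them Tsc1 (40.3 CPM at 0 h, -1.01 at 4 h) and Sesn3 (37.9 to 20.2 CPM, -0.91), both brakes on mTORC1. All genes had 12.1% rises and 16.1% falls there. The other falls and the rises of that list in that class are not given by gene. The PT-like counts for that list were 2 rises and 4 falls among 23 genes at 4 h, beside 15.3% and 12.2%. At 12 h they were 5 rises and 2 falls, beside 12.3% and 10.5%. The DCT/CNT-like counts at 12 h were 3 rises and 4 falls, beside 10.5% and 12.4%. Early and heat shock genes, a list meant to mark tissue digestion, moved with time as well. Of 18, 10 rose and 2 fell at 1 h in DCT/CNT-like cells, beside 5.38% and 5.21% of all genes. In PT-like cells 8 rose and 2 fell at 1 h, beside 3.84% and 5.61%. At 12 h 12 fell in each class, beside 10.5% of all PT-like and 12.4% of all DCT/CNT-like genes. Whether digestion or FGF23 moved these genes was not tested, nor was their part in these results.

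Male-called and female-called cells were compared for each member within PT-like cells. At 4 h 36 of 50 members had a positive ratio among male-called and 45 of 50 among female-called cells, and at 12 h 37 and 38 did. Over PT-like cells of both sexes 55.5% of all genes had one at 4 h and 52.8% at 12 h. That share was not read within either sex, so these counts cannot be set against all genes. Eif5 and Eif4g3 went in opposite directions. Eif5 in male-called cells measured 294, 245 and 270 CPM at 0, 4 and 12 h, and in female-called cells 185, 216 and 246 CPM. The log2 ratios were -0.26 (-0.30 to -0.23) and 0.23 (0.16 to 0.29) at 4 h, and -0.12 and 0.41 at 12 h. Eif4g3, a scaffold paralogue of Eif4g1, measured 104, 89.2 and 79.8 CPM in male-called and 73.6, 82.0 and 90.9 CPM in female-called cells at 0, 4 and 12 h. For both genes the male-called level was above the female-called level at 0 h, and the gap was smaller at 4 h. At 12 h it was smaller still for Eif5 and turned round for Eif4g3. Both genes were also higher at 0 h in PT-S3-like than in PT-S1/S2-like cells (295 and 222 CPM for Eif5, 116 and 70.9 CPM for Eif4g3). Male-called and female-called cells were not split by segment, so the part of the segments in these ratios was not tested.

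**Figure D5:**
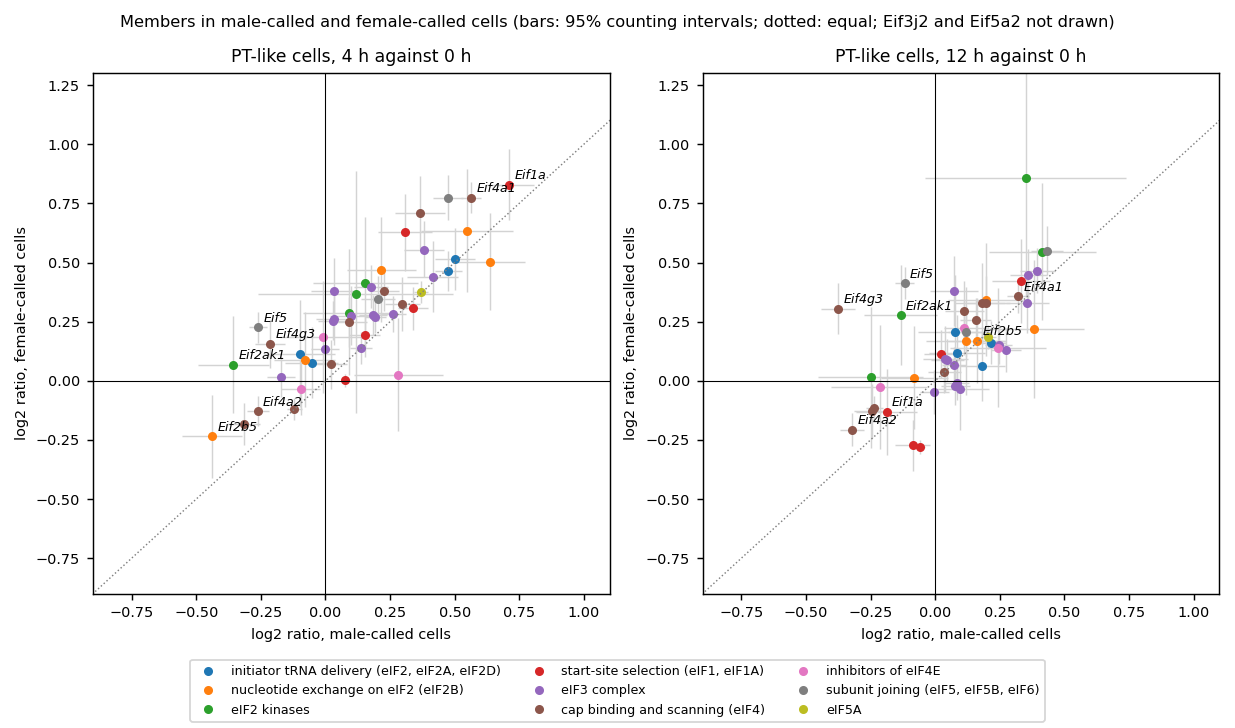
Log2 ratio of CPM to 0 h in female-called cells (y axis) against male-called cells (x axis) for members in PT-like cells at 4 and 12 h, coloured by role, with 95% counting intervals as bars and a dotted line of equality. Eif3j2 and Eif5a2, with the fewest UMIs of those past the minimum, are not drawn; most members lie in the upper right, and Eif5 and Eif4g3 are among the few in the upper left at both times.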

How the data were processed

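Kidney cells were profiled by droplet 3′ single-cell RNA sequencing. Per the submitters' processing notes, the authors used Cell Ranger 3.1.0, STAR and Seurat with build mm10. What the authors deposited was a UMI count for each gene in each barcode, without normalisation. Barcodes with under 300 genes or over 50% mitochondrial UMIs were left out, and 9.57% to 10.1% of cells per library were removed as doublet calls (simulated doublets among 30 neighbours, at 0.8% per 1000 cells).

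Cells of all libraries were clustered jointly (leidenalg 0.10.2, resolution 1.5, 20 neighbours, 30 components) on 2022 genes, without the members, their partner lists, early genes or sex-linked genes. Of 50 clusters 14 stayed unnamed, and a class needed 3 markers. Sex was called from Xist and Y-linked genes, with 33.8% of cells uncalled. Counts were added up over the cells of a class in a library, and exact Poisson intervals were taken for CPM and exact conditional binomial intervals for ratios (SciPy 1.17.1). The script was tested on simulated data. Library totals were 139675666 to 158838728 UMIs, and PT-like totals 76578660 to 96213706 UMIs against 5059520 to 7740120 for DCT/CNT-like cells, so counting error is smaller in the former.

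Members and lists were chosen with earlier results of these data known. Named genes were up to 4 rises and 4 falls per class and time in the same direction in both sexes, the 6 with the largest ratio between tubule classes at 0 h and at least 100 UMIs in the highest, all kinases and 4E-binding proteins, and the member with most UMIs of each role. Others named beside them (such as Eif4a2, Eif1ax, Eif4e, Eif2b3, Eif2b4, Eif3c) were chosen after their values were seen. Alternatives were filters, scalings, minimums, sexes and segments. The time point of 24 h was not analysed here. Transcripts were compared with BLASTN 2.17.0+.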

Additional observations from a re-analysis of the deposited data

Results flagged for a closer look

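In PT-like cells at 4 h the log2 ratio of Eif5 was -0.26 for male-called cells and 0.23 for female-called cells, and at 12 h it was -0.12 and 0.41. Eif4g3 likewise had -0.21 and 0.16 at 4 h, and -0.38 and 0.31 at 12 h. These were 2 of 50 members at each time with intervals on opposite sides of 0, and no member did so in DCT/CNT-like cells. Between classes, Eif5 at 4 h was -0.16 in PT-like and 0.28 in DCT/CNT-like cells. Eif4g3 at 12 h was -0.24 and 0.26 in the same order. Eif4ebp2 at 12 h was 0.17 and -0.34. Each library is 1 sample, so these differences in direction were not tested.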

How the results depend on the processing

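With 1 library per group, depth and cell number limit every count: DCT/CNT-like values rest on 499 to 656 cells per library. No paired analysis was possible because each group has 1 library. Across the alternatives the median ratio of the members at 4 h ran from 0.11 to 0.28 in PT-like and from 0.14 to 0.34 in DCT/CNT-like cells. Settings that moved a value are listed next, and the causes were not tested.

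In PT-like cells the median at 4 h was 0.11 with a mitochondrial limit of 25%, 0.28 in female-called cells alone and 0.11 in PT-S3-like cells alone, and at 12 h it was 0.024 in PT-S3-like cells. Rises at 1 h numbered 1 in male-called cells, 1 with at least 300 UMIs, 1 at a fold limit of 1.5 and 0 in PT-S3-like cells. Falls at 4 h numbered 3 with the limit of 25%, 2 in male-called cells, 0 in female-called cells, 2 with scaling to non-mitochondrial UMIs, 3 in PT-S3-like cells and 0 at 1.5-fold. Rises at 1.5-fold numbered 5 at 4 h and 1 at 12 h. At 12 h PT-S3-like cells had 2 rises and 4 falls, and male-called cells 2 falls.

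In DCT/CNT-like cells rises at 1 h numbered 2 in male-called cells, 7 with median-of-ratios size factors and 0 at 1.5-fold. At 4 h they numbered 9, with 6 falls, with scaling to non-mitochondrial UMIs, and 7, with 0 falls, at 1.5-fold. Falls at 4 h numbered 1 with the limit of 25%, with doublet calls kept, with size factors, in the Slc12a3-led cluster alone and when centred on the median of all genes (the last pair chosen after seeing the data), and 0 in male-called or female-called cells alone. At 12 h there were 6 rises and 1 fall with the limit of 25%, 4 rises and 1 fall at 1.5-fold, and 1 fall with doublet calls kept, in male-called cells, with size factors and in the Slc12a3-led cluster.

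Eif2ak4 at 12 h was -0.011 in PT-S3-like cells alone, and Eif2ak1 in DCT/CNT-like cells at 4 h was 0.21 with the limit of 25%; no other called ratio of a member changed sign under any alternative run.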
